A study of Mus musculus with 16 samples.

Results

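Oxidative phosphorylation genes were taken by symbol from the normalized counts of mouse endometrial epithelial organoids. They are 110 of the 23306 genes in the table. The rule kept the subunits encoded in mitochondrial DNA (mt-Nd, mt-Co, mt-Atp and mt-Cytb names) and nuclear genes named Nduf, Sdha to Sdhd, Uqc, Cox4 to Cox8 or Atp5. It gave 13 mitochondrially encoded and 97 nuclear-encoded genes, and 3 symbols that end in -ps were left out. Among the 97, Ndufa11b, Ndufb4c, Ndufs6b and Cox6c2 are processed pseudogenes in the annotation used, and the rule kept them by name. Organoids of the uterine lining were compared in 4 groups of 4 libraries, numbered M1 to M16 in the labels. The groups were Tgfbr2 PRcre+ conditional knockouts (cKO) under E2/MPA (M13 to M16), Tgfbr2 FF controls under E2/MPA (M9 to M12), cKO under vehicle (M5 to M8) and controls under vehicle (M1 to M4). After 2 days of culture, organoids received vehicle over 6 days, or the estrogen estradiol (E2) at 10 nM over 2 days, followed by 4 days of 10 nM E2 together with 1 µM of the progestin medroxyprogesterone acetate (MPA). Tgfbr2 encodes a TGF-beta receptor. PRcre, in which the progesterone receptor gene drives Cre recombinase, is given for the cKO only, so an effect of the deletion and one of Cre cannot be told apart. Animal age and the number of animals behind each group are not given in the sources used here, so the p-values reflect only how far these libraries scatter, and part of that scatter may be technical.

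The respiratory chain passes electrons from NADH and succinate to oxygen through complexes I to IV of the inner mitochondrial membrane and pumps protons, and complex V, the ATP synthase, uses the proton gradient to make ATP. Complexes I, III, IV and V are built from both genomes, while complex II is encoded in the nucleus alone. Mitochondrial DNA is transcribed as long polycistronic RNAs that are cut into messenger, transfer and ribosomal RNAs, whereas each nuclear subunit gene has its own promoter. In the endometrium, estradiol and progestin direct the growth and then the differentiation of the epithelium.

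Depth was 14372111 to 20016836 reads per library. All 5 epithelial marker genes reached a normalized count of 10 in every library. Stromal marker genes summed to 1906 to 34063 in cKO E2/MPA libraries, 1528 to 41056 in control E2/MPA, 1382 to 18262 in cKO vehicle and 774 to 47003 in control vehicle. Within each group the library with the highest stromal sum was M16, M12, M8 or M4. The control libraries M9 (18348.5) and M1 (10343) were also high, with M9 above M8, while the other libraries had at most 3820. Of the 8 stromal genes, 6 reached 10 in every library. The macrophage sum was 18607 in M12 and 14348 in M4, and at most 4673 in the others. Whether these cells carry part of the values below was not tested. The counts of called genes are also given without M4, M8, M12 and M16, a fit that still holds M1 and M9.

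Several mitochondrial genes have a near-identical copy in the nuclear genome, which bears on how their reads could be assigned. In the GENCODE M21 annotation (GRCm38), 6 of the 13 had 50% or more of their transcript matched at 98% identity or more, over at least 100 bases, by a pseudogene in a cluster at chr1:24611535-24616197. They are mt-Nd3, mt-Nd4, mt-Nd4l, mt-Co2, mt-Co3 and mt-Atp6. A seventh gene, mt-Co1, matched over 31.3% of its length. The stretches below show how little separates gene and copy, with the differing base in capitals and positions counted from 1 at the transcript's first base. The difference is T3C between mt-Nd3 and its copy Gm28438 and A1066T between mt-Co1 and its copy Gm29216, while the first 90 bases of mt-Co3 and its copy Gm28437 are identical.
mt-Nd3: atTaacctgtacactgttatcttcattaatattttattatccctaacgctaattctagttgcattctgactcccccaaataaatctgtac
Gm28438: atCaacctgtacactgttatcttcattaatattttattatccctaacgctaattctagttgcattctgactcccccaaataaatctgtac
mt-Co1: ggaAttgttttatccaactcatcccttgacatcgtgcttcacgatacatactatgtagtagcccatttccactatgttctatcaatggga
Gm29216: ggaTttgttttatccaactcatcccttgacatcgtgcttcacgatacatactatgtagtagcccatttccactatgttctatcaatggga
mt-Co3 and Gm28437: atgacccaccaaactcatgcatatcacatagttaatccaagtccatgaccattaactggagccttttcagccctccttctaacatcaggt

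The pseudogene copies were themselves counted. Of the reads assigned to mt-Co3 or Gm28437, the copy held a median of 65.4% over the 16 libraries (60.1% to 75.3%). The copy's share was 54.0% for mt-Nd4l (Gm10222), 51.9% for mt-Atp6 (Gm10925), 36.5% for mt-Co2 (Gm28661) and 20.3% for mt-Nd3 (Gm28438). That share was 1.55% for mt-Nd4 (Gm28439), whose copy spans 63.6% of the transcript, and 0.664% for mt-Co1. The sources used here do not say how reads that match both places were counted, so the levels of these genes are uncertain.

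The mitochondrially encoded genes held the highest levels of the set. Per kb of exon, mt-Co1, the catalytic subunit of complex IV, averaged a normalized count of 67450.3, mt-Nd1 of complex I 27096, and mt-Cytb, the cytochrome b of complex III, 21419. The genes mt-Nd2, mt-Nd4, mt-Nd5 and mt-Nd6 of complex I followed with 10699.6, 8576, 8497 and 5984 per kb, so ranks 1 to 7 of all members were mitochondrial. Among the 97 nuclear genes the median was 563.6 per kb, and the highest, Cox8a of complex IV, reached 4645. The mitochondrial genes with copies over 50% or more of their length spanned 136 per kb in mt-Nd4l to 8576 per kb in mt-Nd4.

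Levels did not change steadily along the mitochondrial chromosome. The neighbours mt-Co2, mt-Atp6 and mt-Co3 had total normalized counts of 988 ± 138, 677 ± 116 and 611 ± 79.1 (mean ± SD, n = 16 libraries of all groups), against 104211 ± 11988 for mt-Co1. The shortest gene, mt-Atp8 of the ATP synthase, had 45 reads over all 16 libraries and values of 0 to 9.16, and was too low to test. It shares 43 bases with mt-Atp6 on the same strand, and mt-Nd4l shares 7 bases with mt-Nd4. mt-Nd6, the gene on the opposite strand, shares 14 bases with mt-Nd5. The sources used here state neither the strand setting nor the rule for reads over overlapping genes, so reads within these overlaps cannot be told apart.

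**Figure D1:**
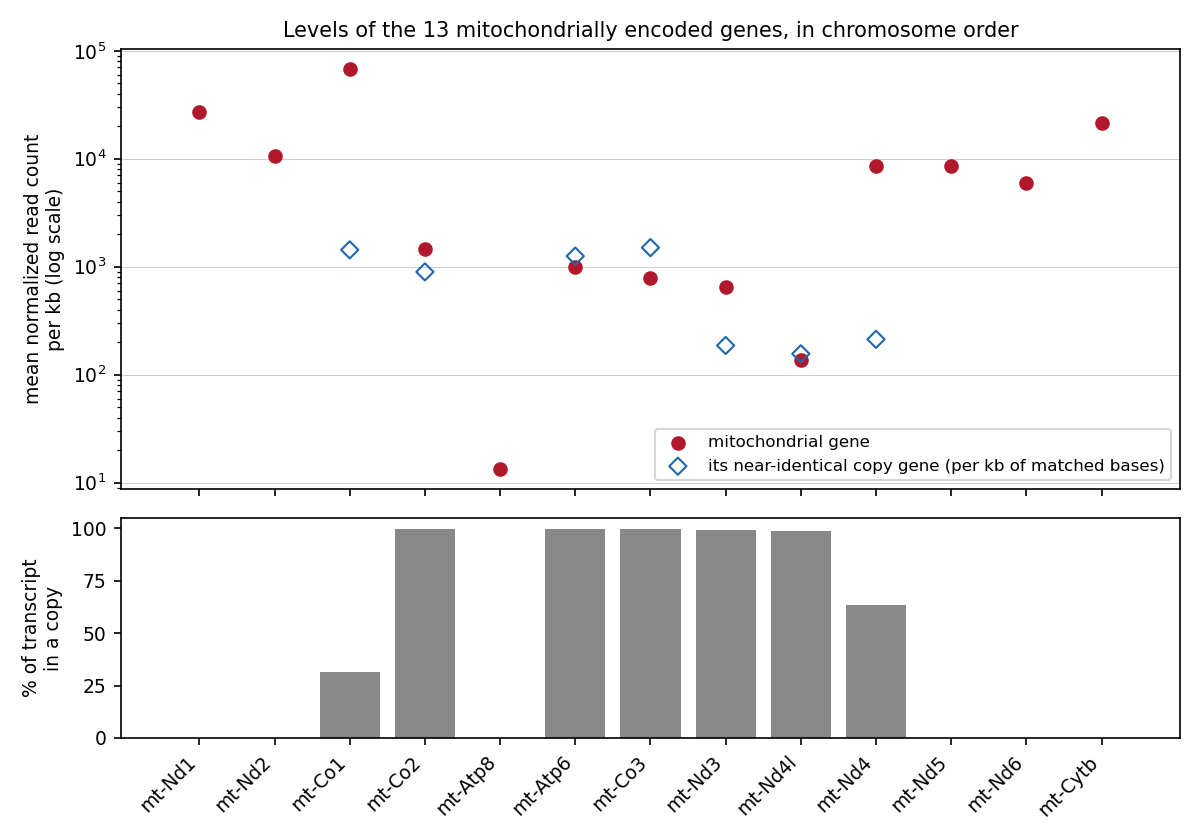
Mean normalized read count per kb over 16 libraries (upper panel, log axis) of the 13 mitochondrially encoded genes in chromosome order (filled circles) and of their near-identical nuclear copies per kb of matched bases (open diamonds), with the share of each transcript found in a copy (lower panel, %). mt-Co1 stands highest, and the genes from mt-Co2 to mt-Nd4l, apart from mt-Atp8, lie at the level of their copies or within a factor of 10 of it.

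Among nuclear subunits, the highest per kb after Cox8a was Cox6a1 of complex IV with 4301. The catalytic core of the ATP synthase followed, with Atp5a1 at 3869.8 and Atp5b at 3619 per kb. Ndufa2, an accessory subunit of complex I, had 1671 per kb. Uqcrh (1408) and Uqcr11 (1389) were highest in complex III, and Sdhd (1304) and Sdha (1059.5), a membrane anchor and the flavoprotein, in complex II.

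Subunit isoforms differed widely in level, each given here as a mean per kb over all libraries. Cox4i1, the common isoform of subunit 4, had 3333 per kb and Cox4i2, known as the lung isoform, 10.6. Cox6b1 had 2907 and Cox6b2, known from testis, 34.4. Cox7a2 had 965 and Cox7a1, the heart and muscle isoform, 71.1, while the related supercomplex factor Cox7a2l had 2279.6. Ndufa4, now assigned to complex IV, had 959 and its paralog Ndufa4l2 57.1. The 3 genes for the c ring subunit of the ATP synthase had 1461 (Atp5g3), 1094 (Atp5g2) and 201 (Atp5g1). Their exon lengths were 2181, 1675 and 4912 bases, and their normalized counts without division by length were 3186, 1833 and 989. The order and size of differences per kb thus depend in part on the annotated lengths. Cox6a2, the muscle counterpart of Cox6a1, had 25 reads in all and was not tested, nor were the pseudogenes Cox6c2, Ndufa11b and Ndufs6b. Thus 105 members were tested, 12 mitochondrial and 93 nuclear. The 93 include the pseudogene Ndufb4c, which is counted with complex I below.

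Under E2/MPA the summed mitochondrial transcripts were higher on average in both genotypes, with overlapping libraries. In cKO organoids the 13 genes summed to normalized counts of 176736, 238781, 209249 and 181620 under E2/MPA, against 155783, 195590, 180836 and 173248 under vehicle. In control organoids they summed to 195141, 244028, 237097 and 217170 under E2/MPA, against 164947, 207689, 214802 and 186758 under vehicle. The ratios of the means were 1.14 in cKO and 1.15 in control.

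The 97 nuclear genes summed to 133544 ± 5361 under E2/MPA and 125221 ± 6200 under vehicle in cKO organoids (mean ± SD, n = 4 each). In control organoids they summed to 135731 ± 9760 under E2/MPA and 123558 ± 17155 under vehicle. Those ratios of means were 1.07 in cKO and 1.10 in control. In cKO the lowest E2/MPA library, M16 with 129163, was just under the highest vehicle library, M5 with 129306.

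The ratio of the mitochondrial to the nuclear sum was 1.51 ± 0.23 under E2/MPA and 1.41 ± 0.14 under vehicle in cKO organoids, and 1.64 ± 0.090 under E2/MPA and 1.57 ± 0.075 under vehicle in controls. The groups overlapped in both genotypes. mt-Co1 alone made up 49.4% to 55.2% of the mitochondrial sum in every library. In bulk RNA, fewer cells of a type and less RNA per cell cannot be told apart.

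**Figure D2:**
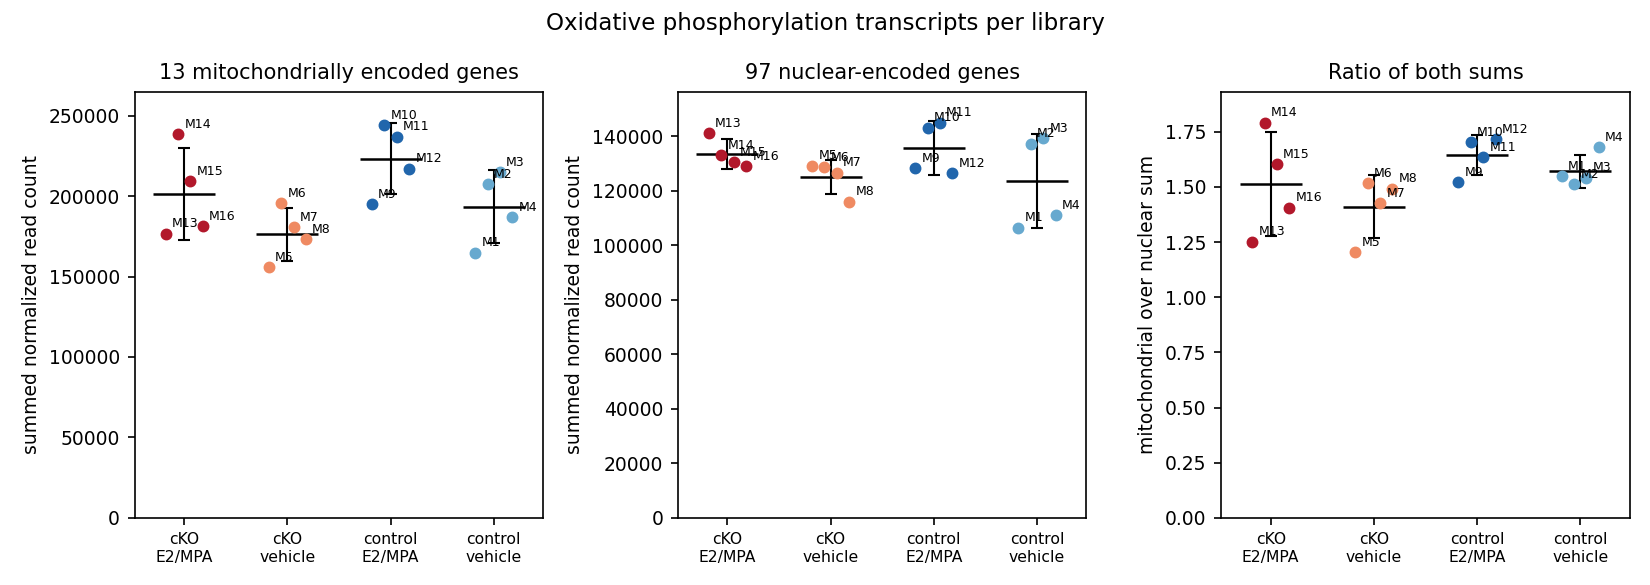
Summed normalized read counts of 13 mitochondrially encoded genes (left), 97 nuclear-encoded genes (middle) and the ratio of both sums (right) in the 16 libraries by group, with the group mean (line) and SD (bar). E2/MPA means lie above vehicle means in each genotype in all 3 panels, and the libraries overlap.

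Per gene, no mitochondrially encoded gene passed the test for the hormone effect in the fit of all libraries by group. Of the 12 tested, limma called 0 in cKO and 0 in control at an adjusted p under 0.05, edgeR and DESeq2 called 0 as well, and 3 in cKO and 2 in control had an unadjusted p under 0.05. Of all genes tested, 4.19% were called in either direction in cKO and 8.9% in control, and 18.6% and 23.9% had an unadjusted p under 0.05. The log2 fold changes were positive for 12 of 12 genes in cKO, with a median of 0.21 (0.037 to 0.32). They were positive for 11 of 12 in control, with a median of 0.21 (-0.049 to 0.35). Over all 16509 genes the median was -0.0039 in cKO and -0.00077 in control, with 49.3% and 49.9% positive. With libraries 8 numbers apart as a block, a pairing that the labels do not state, 3 of the 12 were called higher in cKO, where 9.99% of all genes were, and 5 in control, where 14.3% were. The mitochondrial genes other than mt-Nd6, which lies on the opposite strand, share primary transcripts, so they are not independent of each other.

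mt-Co2, an electron-accepting subunit of complex IV, had the lowest p of the mitochondrial genes in cKO organoids. Its normalized counts were 989.8, 1195, 1016 and 957 under E2/MPA and 735, 866, 879.7 and 929 under vehicle, with no overlap. Its log2 fold change was 0.29 ± 0.12 (SE) with an adjusted p of 0.198 in limma. With the counts of its copy Gm28661 added, the log2 fold change was 0.16, and that of the copy alone was -0.044. mt-Nd2 of complex I also did not overlap in cKO, at 10664, 12573, 11003 and 10837 under E2/MPA and 8931, 9956, 9774 and 10649.5 under vehicle (log2 fold change 0.20 ± 0.090, adjusted p = 0.258 in limma). These were 2 of 12 mitochondrial genes, where 8.01% of all genes were higher without overlap.

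In control organoids the largest mitochondrial fold change was that of mt-Cytb. It had 23912, 34907, 33717 and 28078 under E2/MPA and 17383, 27761, 29314 and 20878 under vehicle, so the groups overlapped (log2 fold change 0.35 ± 0.21, adjusted p = 0.324 in limma). mt-Nd4 had 14106 ± 1774 under E2/MPA and 11289.5 ± 1633 under vehicle (log2 fold change 0.32, adjusted p = 0.186 in limma). mt-Nd3 was the exception in sign, with 229 ± 38.7 under E2/MPA and 239 ± 54.5 under vehicle (log2 fold change -0.049). Its sign was positive without M2, M3 or M9.

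The copies show how far the split of reads matters for these differences. With each copy's counts added to its gene, the log2 fold change of mt-Atp6 in control became -0.061, against 0.22 for the gene alone. That sign rested on single libraries: the sum's fold change was 0.15 without M4, where the copy had 1907 against 598 to 786 in M1 to M3, and 0.040 without M9. That of mt-Co3 in control became 0.036, against 0.12, and was negative without M1, M10 or M12 (-0.063 to -0.019). The copy of mt-Nd4l, Gm10222, was called higher in control organoids, at 65.6 ± 7.91 under E2/MPA and 36.7 ± 6.53 under vehicle (log2 fold change 0.83, adjusted p = 0.0485 in limma). Over the 6 tested genes without a copy over 50% or more of their length, the median log2 fold change was 0.19 in cKO and 0.22 in control. The ribosomal RNAs of the same chromosome, which lie outside the rule, had log2 fold changes of 0.25 (mt-Rnr1) and 0.17 (mt-Rnr2) in cKO and 0.41 and 0.29 in control, and none was called.

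Nuclear-encoded genes gave 1 call in cKO and 6 in control, all higher under E2/MPA. Of the 93 tested, 1.08% were thus called higher in cKO, where 2.71% of all genes were, and 6.45% in control, where 5.39% of all genes were. These shares are below or near the background of the comparison. No member was called lower, where 1.48% of all genes were in cKO and 3.51% in control. The median log2 fold change of the 93 genes was 0.085 in cKO, with 73 positive, and 0.18 in control, with 79 positive. Without M4, M8, M12 and M16, the members called numbered 1 in cKO and 7 in control, all higher, where 3.57% and 7.68% of all genes were called higher in that fit.

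**Figure D3:**
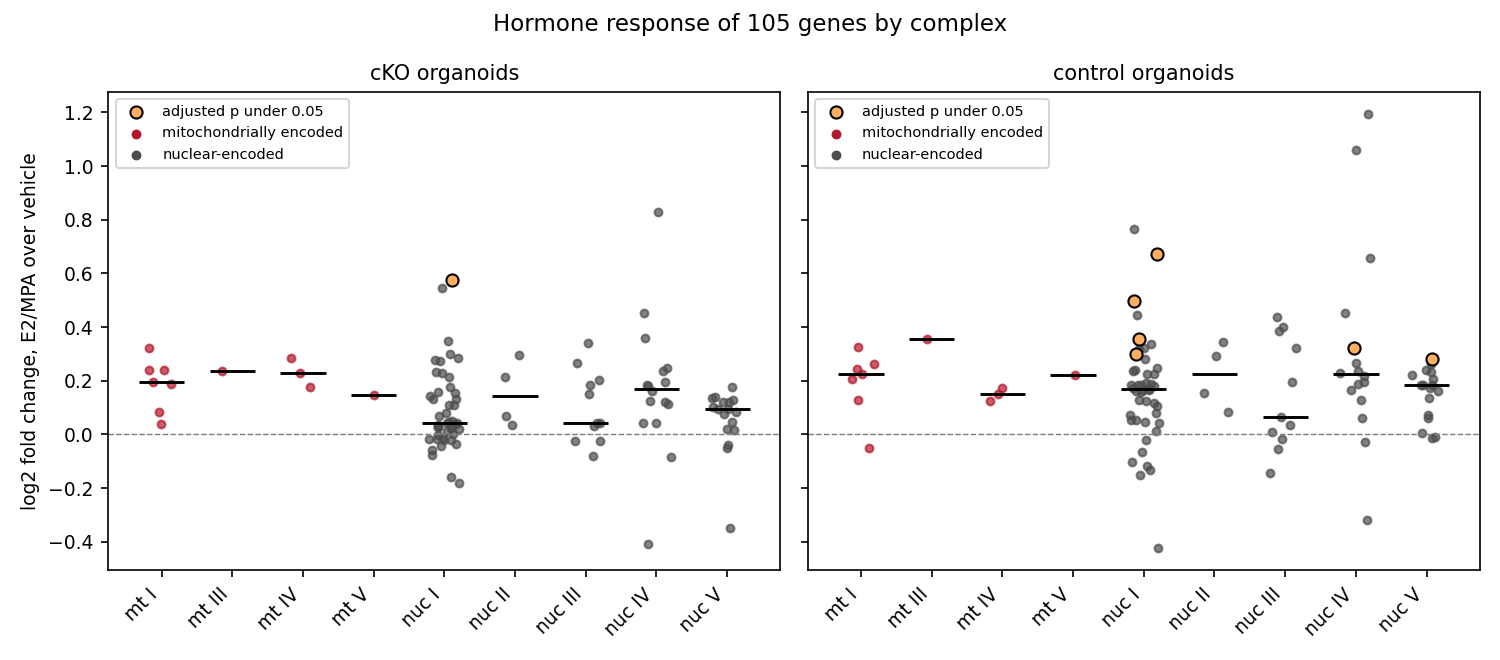
Log2 fold changes of E2/MPA over vehicle for the 105 tested genes in cKO (left) and control (right) organoids, by complex (I to V) and by genome (mt, mitochondrially encoded; nuc, nuclear-encoded), with the median of each class as a line. Ndufa11 in cKO and 6 nuclear genes in control carry the marker of an adjusted p under 0.05, and most points lie above 0. Assembly factors are plotted with their complex.

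Ndufa11, an accessory subunit of the membrane arm of complex I, was the called gene in cKO organoids. It had 713, 775, 733 and 792 under E2/MPA and 527, 508, 453 and 536 under vehicle. Every E2/MPA library was above every vehicle library. The log2 fold change was 0.57 ± 0.10 with an adjusted p of 0.00639 in limma, and the gene was called under all 30 other settings tried. In control organoids it had 780.5, 852, 796 and 656 under E2/MPA and 493, 683, 668 and 608 under vehicle, where M12 fell within the vehicle range (log2 fold change 0.34 ± 0.10, adjusted p = 0.0582 in limma). The difference between the genotypes' responses was 0.24 ± 0.15 with an adjusted p of 1.00 in limma.

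Of the 6 genes called in control, 4 were complex I accessory subunits, a class that makes up 29 of the 93 nuclear genes tested. Of the 7 complex I core subunits 0 were called. Ndufa1, a small membrane-anchored subunit, had 623, 816, 712 and 530.0 under E2/MPA and 316, 524, 499 and 359.9 under vehicle. The groups did not overlap, though M12 lay close above M2 (log2 fold change 0.67 ± 0.17, adjusted p = 0.0252 in limma). Ndufa8, a subunit of the intermembrane space side, had 881, 1022, 1056 and 996 under E2/MPA and 618, 812, 874 and 804 under vehicle, also without overlap. Its log2 fold change was 0.36 ± 0.094 (adjusted p = 0.0286 in limma). Ndufb6 had 529, 530.0, 531 and 593 under E2/MPA and 386, 445, 473 and 473 under vehicle. Its groups were apart too (log2 fold change 0.30 ± 0.083, adjusted p = 0.0375 in limma). Another transcript, Smim27, matches 39.0% of the Ndufb6 transcript and had a mean count of 12.6. Ndufb10 had 714, 921, 937 and 620.2 under E2/MPA and 453, 575, 720.1 and 513 under vehicle, and its groups overlapped (log2 fold change 0.50 ± 0.14, adjusted p = 0.0404 in limma).

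The 2 other genes called in control belong to complexes IV and V. Cox6b1, a subunit of complex IV on the intermembrane space side, had 2203, 2343, 2341 and 2290.4 under E2/MPA and 1542, 1887, 2147 and 1803 under vehicle, without overlap (log2 fold change 0.32 ± 0.096, adjusted p = 0.0485 in limma). Atp5f1, the b subunit of the ATP synthase stalk, had 3266, 3789.9, 3702 and 3293 under E2/MPA and 2513, 3306, 2987 and 2785 under vehicle, where M2 lay above M9 and M12 (log2 fold change 0.28 ± 0.078, adjusted p = 0.0366 in limma). Copies of Atp5f1 cover 64.6% of its transcript, and the longest of them had a mean count of 11.5.

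These 6 calls depended on single libraries. Leaving out control vehicle library M1, or control E2/MPA library M10 or M11, left 0 members called in control, and leaving out M3 or M12 gave 10. Of all genes, 3.31%, 3.03% and 3.08% were called higher without M1, M10 and M11, and 4.83% and 7.64% without M3 and M12. Leaving out M4 left 2, and without cKO vehicle library M5 or M7, 3 were left. Of all genes, 4.46%, 4.89% and 4.96% were called higher without M4, M5 and M7. A fit of the 8 control libraries alone also called 0, but the share over all genes in that fit is not given, so this count does not single out the members. Over the 30 other settings, Ndufa1 and Ndufa8 were called in 25 each, Atp5f1 in 22, Ndufb6 in 18, Ndufb10 in 16 and Cox6b1 in 7.

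In cKO organoids the genes next in rank did not pass. Cox6a1, a regulatory subunit of complex IV, had 3714, 3333, 3471 and 3103 under E2/MPA and 2632, 2726, 2428 and 2185 under vehicle, without overlap. Its log2 fold change was 0.45 ± 0.14 in cKO (adjusted p = 0.0916 in limma), and 0.45 ± 0.14 in control (adjusted p = 0.0601 in limma), where groups overlapped. Ndufa1 in cKO had 638, 635, 649.7 and 488 under E2/MPA and 426, 475, 404 and 345 under vehicle, also without overlap (log2 fold change 0.55 ± 0.17, adjusted p = 0.0938 in limma). Without overlap and higher under E2/MPA were 18 of the 93 nuclear genes in cKO (19.4%), where 8.01% of all genes were. In control they were 9 of 93 (9.68%), where 6.66% of all genes were. The 9 include Cox4i2, a low gene that passed the filter only through E2/MPA libraries. Lower without overlap were 0 in both genotypes, where 5.8% of all genes were in cKO and 5.49% in control. By unadjusted p under 0.05 in limma, 9 of the 93 nuclear genes passed in cKO (9.68%), where 18.6% of all genes did. In control 28 of the 93 did (30.1%), where 23.9% of all genes did.

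**Figure D4:**
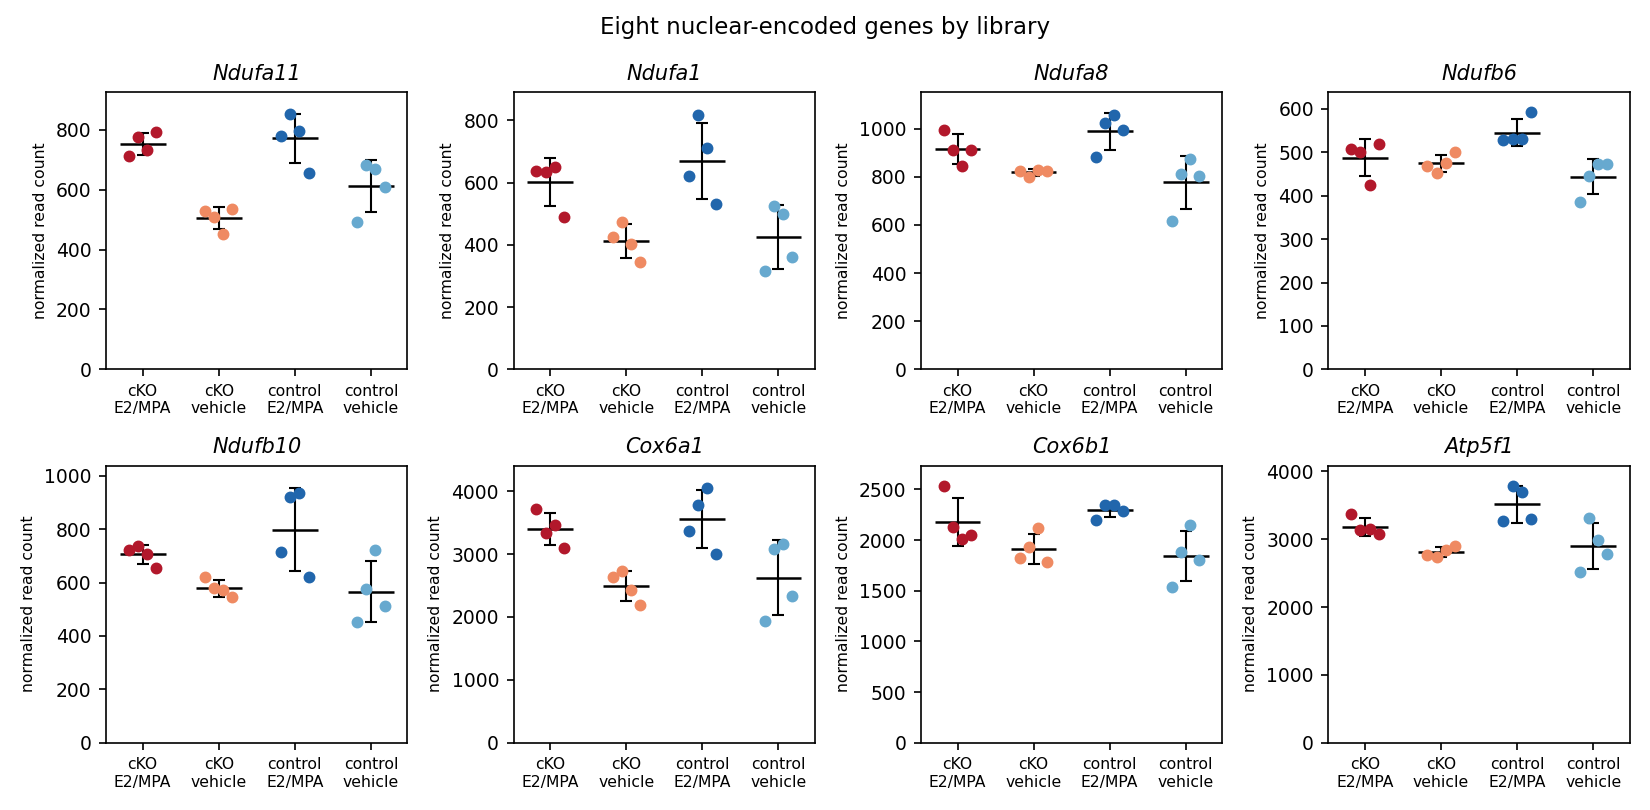
Normalized read counts of 8 nuclear-encoded genes in each library (points) by group, with the group mean (line) and SD (bar). Ndufa11 under E2/MPA spans 713 to 792 in cKO organoids, against 453 to 536 under vehicle, and the spread within the control groups is wider.

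By complex, the nuclear genes differed in their medians in control organoids. The median log2 fold change was 0.17 over 45 genes of complex I, 0.22 over the 4 of complex II, 0.066 over 11 of complex III, 0.22 over 16 of complex IV and 0.18 over 17 of complex V. In cKO organoids these medians were 0.044, 0.14, 0.044, 0.17 and 0.093. The sets of complexes I and III include their assembly factors, and that of complex I the pseudogene Ndufb4c, so they are not medians of subunits alone. Within complex I, the 29 accessory subunits had medians of 0.067 in cKO and 0.19 in control. The 7 core subunits had -0.015 in cKO and 0.072 in control. All 4 genes of complex II, which holds no mitochondrially encoded subunit, were positive in both genotypes, and none was called. Assembly factors within the rule, which help to build the complexes without being part of them, had medians of 0.023 in cKO and 0.010 in control over 11 genes, and none was called. The 79 nuclear subunits had medians of 0.096 in cKO and 0.18 in control.

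The widest spread within groups was that of Ndufa4l2, with an SD of 1.02 on the log2 scale, followed by Atp5e (0.75), the epsilon subunit of the ATP synthase, and the complex I accessory subunits Ndufs5 (0.67) and Ndufa12 (0.66). Ndufa4l2 had 22.6, 44.0, 54.7 and 166 in cKO E2/MPA and 91.6, 55.0, 106 and 110.0 in control E2/MPA libraries, and 19.1, 14.3, 44.0 and 71.1 in cKO vehicle and 26.4, 14.7, 42.6 and 119 in control vehicle libraries. The highest value of each group was in M16, M12, M8 and M4, the libraries with the highest stromal sums of their groups. The part of those cells in it was not tested. Atp5e had 1123, 1082, 344 and 1134 in cKO E2/MPA and 418, 1250.0, 1255 and 1196 in control E2/MPA libraries, and 1046, 1187, 973 and 1032 in cKO vehicle and 310, 1248, 1315 and 919 in control vehicle libraries. The low libraries were M15, M9 and M1, which belong to 3 different groups. Pseudogene copies match 46.9% of the Ndufs5 and 36.2% of the Ndufa12 transcript and had mean counts of 267 and 480.0, so the levels of these genes are uncertain. Cox4i2 had 11.4, 10.0, 9.51 and 17.6 in control E2/MPA, against 4.89, 2.26, 6.55 and 8.80 in control vehicle, without overlap, and was not called. It passed the filter only through E2/MPA libraries, with 10 or more in M9, M12, M13 and M14 and M10 just under. The lack of overlap in this low gene is thus partly set by the filter. Within groups, the SD on the log2 scale had a median of 0.19 over mitochondrial, 0.15 over nuclear members and 0.26 over all genes tested.

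Between genotypes, no member was called under either treatment. Under E2/MPA, limma called 0 of 105, edgeR and DESeq2 0 as well, and 2 had an unadjusted p under 0.05, where 10.9% of all genes did and 0.00606% were called higher and 0% lower. Under vehicle the 3 tools called 0, and 1 member had an unadjusted p under 0.05, where 5.96% of all genes did and 0% were called. The mitochondrial genes had lower values in cKO for 11 of 12 genes under E2/MPA (median log2 fold change -0.19) and 12 of 12 under vehicle (median -0.17). The nuclear medians were -0.053 under E2/MPA and 0.026 under vehicle. Over all genes the medians were -0.0091 under E2/MPA and 0.0010 under vehicle, with 48.1% and 50.2% positive. As stated above, the mitochondrial genes are not independent of each other. The mitochondrial sum was 201597 ± 28626 in cKO and 223359 ± 21989 in control under E2/MPA, and 176364 ± 16562 in cKO and 193549 ± 22478 in control under vehicle. Libraries of the groups overlapped for all 12 mitochondrial genes under both treatments.

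The nuclear genes with the lowest p between genotypes under E2/MPA were Ndufaf2, Ndufc2 and Ndufv3. Ndufaf2, a complex I assembly factor, had 90.4, 107, 95.7 and 105 in cKO and 81.3, 78.0, 87.3 and 82.5 in control, without overlap (log2 fold change 0.27 ± 0.11, adjusted p = 0.375 in limma). Ndufc2, a membrane arm subunit of complex I, had 927 ± 55.3 in cKO organoids and 1132 ± 235 in controls (log2 fold change -0.27, adjusted p = 0.419 in limma). Ndufv3, an accessory subunit, had 781 ± 48.4 in cKO organoids and 885 ± 74.3 in controls (log2 fold change -0.18, adjusted p = 0.492 in limma). Without overlap, 1 nuclear member was higher and 3 lower in cKO, where 3.82% and 2.35% of all genes were. Under vehicle the lowest p were those of Ndufa11 (log2 fold change -0.27, adjusted p = 0.816 in limma), the assembly factor Ndufaf4 (-0.24, adjusted p = 0.835) and Ndufb2 (-0.23, adjusted p = 0.835). No member was without overlap under vehicle, where 1.64% of all genes were higher and 1.37% lower.

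No member passed the test of a difference in hormone response between the genotypes. Limma, edgeR and DESeq2 called 0 of 105, and 2 had an unadjusted p under 0.05, Ndufb6 and Ndufs4, both nuclear genes of complex I, where 1.87% of all genes had one and 0% were called. The median difference (response in cKO minus response in control) was 0.0022 over the mitochondrial and -0.078 over the nuclear genes. For Ndufb6 it was -0.26 ± 0.12. Its libraries had 508, 500.2, 424 and 520.4 under E2/MPA and 469, 452, 475 and 501 under vehicle in cKO organoids.

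Related genes outside the rule were counted in lists chosen with earlier results of these data known. Of 16 tested other carriers and subunits, 1 was called higher in cKO and 3 in control, where 2.71% and 5.39% of all genes were. Of the 16, 5 in cKO and 7 in control had an unadjusted p under 0.05, where 18.6% and 23.9% of all genes had one. The list's medians were 0.14 and 0.18. Etfdh, which passes electrons from fatty acid and amino acid breakdown to ubiquinone, was higher in both genotypes. It had 1003 ± 72.2 under E2/MPA and 739 ± 24.8 under vehicle in cKO (log2 fold change 0.44, adjusted p = 0.00676 in limma), and 962 ± 96.2 under E2/MPA and 772 ± 57.8 under vehicle in control (0.31, adjusted p = 0.0244). Cycs, the cytochrome c that carries electrons to complex IV, had 1346 ± 162 under E2/MPA and 977 ± 121 under vehicle in control (0.46, adjusted p = 0.0133). Higd1a, a factor associated with complex IV, was also higher in control (0.31, adjusted p = 0.0421).

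Of 38 assembly factors outside the rule, Sdhaf2, which helps to attach the flavin of complex II, was called higher in control (log2 fold change 0.24, adjusted p = 0.0301 in limma). Of all genes, 5.39% were called higher in control. In cKO 0 of the 38 were called, where 4.19% of all genes were in either direction. An unadjusted p under 0.05 was found for 3 in cKO and 8 in control, where 18.6% and 23.9% of all genes had one. Of 32 genes for the transcription, replication and RNA handling of mitochondrial DNA, 1 was called in control, and it was lower, where 3.51% of all genes were. In cKO 0 of the 32 were called, and in each genotype 4 had an unadjusted p under 0.05. Tfb2m, the initiation factor of mitochondrial transcription, had 335 ± 12.4 under E2/MPA and 409 ± 26.5 under vehicle in control (log2 fold change -0.28, adjusted p = 0.0316 in limma). The list's median was -0.065 in cKO and -0.054 in control, beside 0.21 in both for the mitochondrially encoded genes.

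Of 17 regulators of mitochondrial biogenesis, Hif1a, the oxygen-sensing factor, was called lower in control, at 4090.4 ± 370.4 under E2/MPA and 6365 ± 645 under vehicle (log2 fold change -0.64, adjusted p = 0.0128 in limma). Of 18 citric acid cycle genes, Idh2, the mitochondrial NADP-dependent isocitrate dehydrogenase, was called lower in control (-0.52, adjusted p = 0.0350). Of all genes, 3.51% were called lower in control. Of 26 mitochondrial ribosome genes limma called 0 in either genotype, where 4.19% of all genes were called in cKO and 8.9% in control. An unadjusted p under 0.05 was found for 4 of the 26 in cKO and 6 in control. Their medians were -0.0089 in cKO and 0.018 in control. In cKO limma called 0 of the regulators and 0 of the citric acid cycle genes, where 3 and 2 had an unadjusted p under 0.05. In control 4 of the regulators and 2 of the citric acid cycle genes had one. Of all genes, 18.6% had one in cKO and 23.9% in control. Between genotypes no list gene was called, and at most 2 genes of a list had an unadjusted p under 0.05. Of all genes, 10.9% had one under E2/MPA and 5.96% under vehicle, and 0.00606% and 0% were called.

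Promoter sequence was searched for 76 nuclear members with a RefSeq entry (GRCm38.p6, 250 bases before to 50 after the start), on both strands, beside the same windows of 27025 genes. The core GCGCATG of the site of NRF1, a known activator of respiratory genes, was in 16 members (21.1%) and in 4.41% of all genes. The ETS core CCGGAAG was in 18 (23.7%) and 9.93%, and the YY1 core GATGGCG in 11 (14.5%) and 4.04%. The half-site TGTTCT of the progesterone response element was in 10 members (13.2%) and 21.3% of all genes, and the half-site AGGTCA of the estrogen response element in 18 (23.7%) and 18.1%. No overlap between motifs was removed, and the windows were not matched on base composition. The windows below are the 150 bases before the transcripts of the 3 genes with the lowest p in cKO, with the NRF1 core on either strand in capitals, at chr17:56717612-56717761 (+ strand) for Ndufa11, chr5:115348982-115349131 (- strand) for Cox6a1 and chrX:37191239-37191388 (- strand) for Ndufa1.
Ndufa11: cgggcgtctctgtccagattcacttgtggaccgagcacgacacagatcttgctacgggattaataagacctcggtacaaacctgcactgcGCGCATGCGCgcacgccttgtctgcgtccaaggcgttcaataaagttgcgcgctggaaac
Cox6a1: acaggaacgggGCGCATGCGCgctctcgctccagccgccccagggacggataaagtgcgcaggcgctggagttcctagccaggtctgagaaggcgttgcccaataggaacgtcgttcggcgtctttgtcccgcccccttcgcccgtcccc
Ndufa1: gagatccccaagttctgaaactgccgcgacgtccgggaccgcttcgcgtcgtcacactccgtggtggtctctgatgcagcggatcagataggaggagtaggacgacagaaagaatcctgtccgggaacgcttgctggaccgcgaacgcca
In Ndufa11 and Cox6a1 the core matches on both strands and the matches overlap, and the Ndufa1 stretch holds neither the NRF1 nor the ETS core. A match is a description of the letters and shows no binding.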

How the data were processed

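Libraries were RNA-seq of 16 organoid cultures in 4 groups. Per the submitters' processing notes, the authors used HISAT2, featureCounts and DESeq2 with the mouse build GRCm39, and per the labels' protocols TruSeq libraries were sequenced on a NovaSeq instrument. The table deposited by the authors holds a normalized signal, that is, counts scaled by 1 size factor for each library. With this scaling undone, 100% of the values in each library were whole reads within 0.01 read. Depth was 14372111 to 20016836 reads.

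Symbols came from GENCODE M21 by Ensembl identifier (22484 genes named, 822 not), an annotation of GRCm38, so current names of renamed genes were not searched, and coordinates are given only for its reference sequences. The members and lists were chosen with earlier results of these data known. Genes named are the 13 mitochondrial members; per comparison and direction, up to 5 nuclear members called, or the 3 with the lowest p where fewer than 3 were called; the 2 highest subunits per kb of each complex; isoforms; and up to 4 called genes per list. Other genes, among them Cox6b1 in its comparison, Ndufs4, Atp5e, Ndufs5, Ndufa12 and the copies, were chosen after their values were seen. An item that the rule names is not reported here.

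Values were tested as log2(value + 1), which understates changes of low genes, in the 16509 genes with at least 10 in at least 4 libraries (6797 were not tested). A single fit of all 16 libraries was made with limma (3.58.1, in R 4.3.3), with a trend of variance on mean level and 1 coefficient per group, two-sided, adjusted by Benjamini-Hochberg over all genes tested with a threshold of 0.05. An SE follows each fold change as ±, and levels carry an SD. Counts of positive members carry no test, because members are not replicates. edgeR (4.0.16) and DESeq2 (1.42.0) were run on the recovered reads and called 678 and 1203 genes for the hormone effect in cKO, and 1497 and 2097 in control. The short motif cores replaced longer forms of the same sites, which had been searched before. Near-identical copies were found with blastn (2.17.0) against the GENCODE transcripts. The fit was tested on simulated data. Alternatives were the pseudocount, filter, scaling, tool, libraries fitted, weights, a robust fit, a block, and leaving out each library, or M4, M8, M12 and M16 together.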

Additional observations from a re-analysis of the deposited data

Results flagged for a closer look

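In 15 of 240 groups of 4 libraries examined, 1 library lay far from the other 3, with a gap above Dixon's 95% critical value for groups of 4. Chance flags about 1 in 20 groups.

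Among mitochondrial genes, mt-Nd1 was low in control vehicle library M1, at 21634, where the others of the group had 26347 to 27219.9. mt-Nd6 was low in cKO vehicle library M5, at 2399.9, against 3029 to 3061 in the others. In control E2/MPA library M9, mt-Co2 had 897 and mt-Co3 had 509, against 1131 to 1177 and 716 to 721 in the others. M1, M5 and M9 had the lowest mitochondrial sum of their groups. Among the nuclear copies, Gm10925 had 1907 in control vehicle library M4 (others 598 to 786), Gm10222 had 22.4 in cKO vehicle library M5 (others 40.7 to 42.0) and Gm28438 had 66.7 in cKO E2/MPA library M16 (others 57.0 to 58.1).

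In cKO E2/MPA library M16, Ndufa1 had 488 (others 635 to 649.7) and Cox7a2l had 2697 (others 3580.5 to 3734). Cox6a2 was at 2.15 there, which is 2 reads, and at 0 in the others. Atp5e had 344 in cKO E2/MPA library M15 (others 1082 to 1134) and 418 in control E2/MPA library M9 (others 1196 to 1255). Ndufa12 had 496 in cKO vehicle library M7, against 178 to 184 in the others. Ndufb6 was high in control E2/MPA library M12, at 593 against 529 to 531. Cox4i2 had 3.37 in cKO vehicle library M5 and 7.56 to 8.37 in the others. M16 and M12 are libraries with the highest stromal sums of their groups, and a part of those cells in these values was not tested.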

How the results depend on the processing

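The number of members called depended on the setting. For the hormone effect in control (6), it was 2 with no filter, 11 with DESeq2, 0 in a fit of the compared libraries alone and 13 with array weights. Leaving out 1 library gave 0 to 10, where 3.03% to 7.64% of all genes were called higher. For the hormone effect in cKO (1), it was 3 with DESeq2, 3 in a fit of the compared libraries alone and 3 with array weights. Leaving out 1 library gave 1 to 2, where 1.54% to 3.26% of all genes were called higher. Between genotypes under E2/MPA (0), it was 1, lower in cKO, with array weights. Over all genes, DESeq2 called 1203 for the hormone effect in cKO (692 in limma) and 2097 in control (1469 in limma). It called 170 between genotypes under E2/MPA (1 in limma) and 13 under vehicle (0 in limma). The causes were not tested, beyond fewer libraries in the fits without some. Over the 3 other scalings, control gave 4 to 5 and cKO 1. For the filter, the scalings, the compared libraries alone and the array weights, the share over all genes is not given. Those counts therefore do not single out the members from other genes. The mitochondrial minus the nuclear median for the hormone effect was 0.13 in cKO and 0.032 in control. Without 1 library it was 0.054 to 0.19 in cKO and -0.026 to 0.062 in control, negative without M12, and without M4, M8, M12 and M16 it was 0.19 in cKO and 0.0053 in control. Over the genes without a long nuclear copy, an alternative chosen after seeing the data, it was 0.10 in cKO and 0.034 in control. Leaving out each library for the sums of gene and copy was also chosen after seeing the data.

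The labels share no replicate numbers between groups. Libraries 8 numbers apart, a pairing the labels do not state, had correlated deviations (0.386 to 0.746 over 8 pairs), though not every library correlated best with its partner. With them as a block, the members called were 36 in control, 5 of them mitochondrial, and 13 in cKO, 3 of them mitochondrial, all higher, where 14.3% of all genes were called higher in control and 9.99% in cKO.

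Signs turned for 3 mitochondrial genes, none of them called. In cKO, mt-Nd6 had -0.032 with scaling to total reads without the mitochondrial genes and -0.048 to 0.14 without 1 library (negative without M5 or M14), and mt-Nd5 had -0.0043 (without M14) to 0.15. In control, mt-Nd3 had -0.22 to 0.082 without 1 library, positive without M2, M3 or M9. Of 684 fold changes of named genes under other settings, 624 kept direction and call, 34 lost the call and 25 gained it; of 784 without 1 library, 693, 79 and 6. The depth sets no limit for abundant members, while mt-Atp8 and 4 nuclear genes were too low to test.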
